A study of Homo sapiens with 4 samples.

Results

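The ligands and receptors of the TNF superfamily were measured in LN229 cells, a human glioblastoma line, after SOX2 was knocked down. Members were taken by name: array probes whose gene symbol began with TNFSF or TNFRSF, or was TNF, LTA, LTB, FAS, FASLG or CD40. The rule found 47 of the 33096 gene probes, which fell into 41 of the 27739 gene features obtained after averaging probes by Celera gene ID. Of these 41 features, 15 were ligands, 25 were receptors and 1, TNFSF5IP1, only shares the prefix: its probe belongs to PSMG2, a proteasome assembly chaperone.

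The study compared LN229 cells transfected transiently with SOX2 siRNA with LN229 cells given a control siRNA without a target (mock knockdown), all grown in DMEM, with 2 arrays per group. The study's methods describe the arrays of each group as biological replicates that include the transfection, while the labels do not say which SOX2 siRNA was used. One label field names SW620, a colon cancer line, whereas the title, description and cell line fields name LN229. Total RNA was labelled with biotin and read by chemiluminescence on Human Genome Survey arrays of Applied Biosystems.

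Members of the TNF superfamily are mostly trimeric ligands, anchored in the membrane or shed from it, that bind receptors with cysteine-rich extracellular repeats. Receptors with a cytoplasmic death domain can recruit adaptors that activate caspases, other receptors bind TRAF proteins and signal to NF-kappaB and the stress kinases, and decoy receptors bind ligand without passing on the death signal. In gliomas the family is best known for FAS and the TRAIL receptors, which can trigger apoptosis, and for TNFRSF12A, the receptor of the cytokine TWEAK.

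SOX2 itself was read at 0.454 and 0.682 in mock cells and at 0.204 and 0.145 in knockdown cells, where a value of 1 is the array's 75th percentile of signal. The replicate means gave a ratio of 0.308, and limma gave a log2 change of -1.69 (SE 0.28, Benjamini-Hochberg adjusted p = 0.114). Between 63.8% and 69.4% of probes per array had a signal-to-noise ratio (S/N, the scanner's score for each probe) above 3. The score is not the printed signal over an error, because it was negative for some probes with a positive signal. All 8 glioma line markers examined were above that limit on all 4 arrays. Among them FABP7, a fatty acid binding protein of radial glia, had replicate means of 20.6 in mock and 10.1 in knockdown cells. Its log2 change was -1.02 (SE 0.14, limma adjusted p = 0.101). OLIG2 went the other way, at 0.42 (SE 0.13). Of the 8 markers, 4 had a log2 change above 0 and 3 below, VIM was at 0, and the median was 0.02. Of 7 colon epithelium markers, VIL1 was above the limit on 4 arrays, and KRT20 and CDH17 were on none. CDX2 (S/N 4.38 and 3.18) and LGALS4 (5.20 and 8.20) were above it on both mock arrays and on neither knockdown array, and their log2 changes were -0.60 (SE 0.29) and -0.58 (SE 0.35). EPCAM was above it on mock array 2 only, at 5.21, and CDX1 on 1 array of each group. Of 9 blood and immune cell markers, 3 were above the limit on 4 arrays, CD14 and ITGAM among them. PTPRC was among the 4 that were above it on none, and the rest were above it on fewer arrays. The part of cells other than LN229 in the results below was not tested.

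Many of the superfamily probes were not detected. S/N was above 3 on all 4 arrays for 23 of the 47 probes (48.9%, against 59.2% of all probes), on 1 to 3 arrays for 6 probes, and on no array for 18 probes. Features were kept for comparison when S/N was above 3 on both arrays of at least 1 group. This filter was passed by 21 of the 41 member features and by 18378 of all 27739 features. Applied to single probes, it was passed by 55.3% of the member probes, against 64.6% of all probes.

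**Figure D1:**
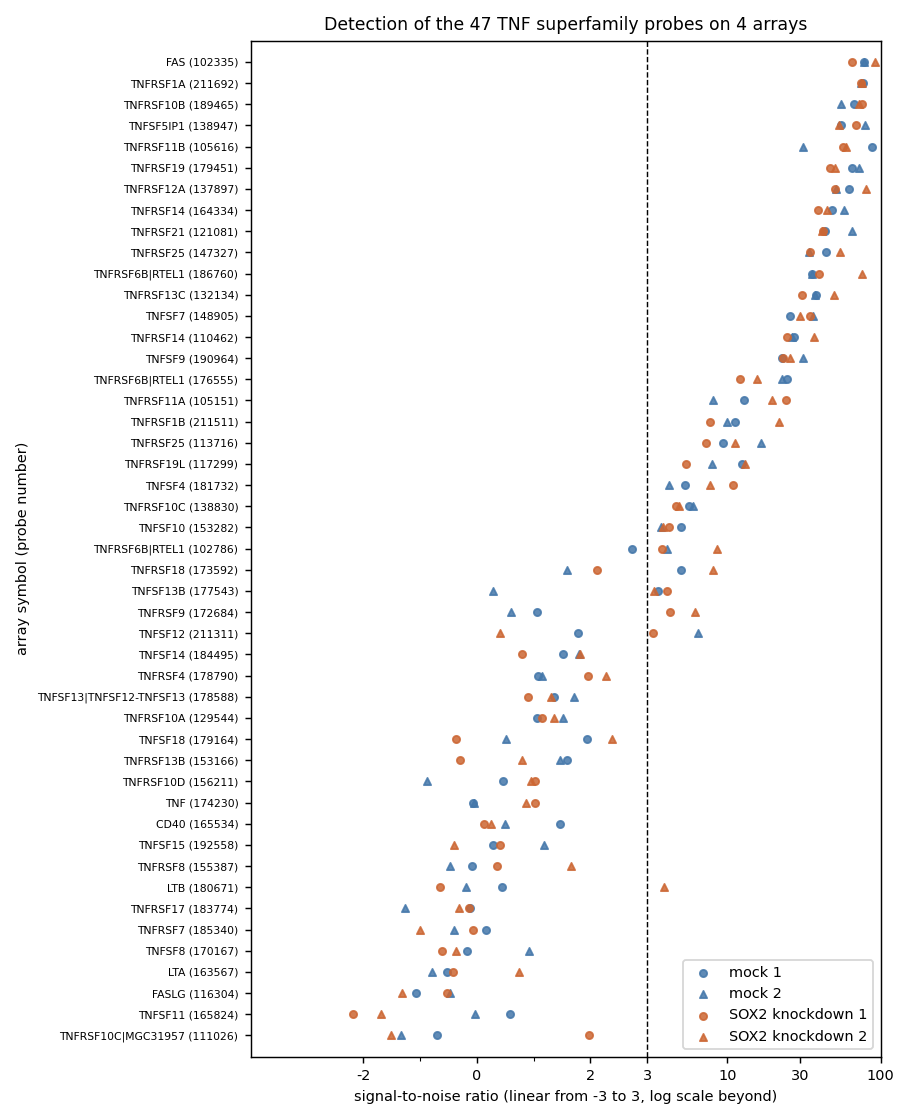
S/N of each of the 47 probes (rows, array symbol with probe number) on the 2 mock arrays (blue) and 2 SOX2 knockdown arrays (orange), with a dashed line at 3. The upper rows lie to the right of the line on every array, 18 probes lie to its left on every array, and TNFRSF9 crosses it between groups.

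The silent members included several of the best known ligands. Of the 15 ligand features 5 were kept, and S/N was above 3 on no array for 8, among them TNF, the founding cytokine of the family, for which it lay between -0.07 and 1.03. FASLG, the ligand of FAS, lay between -1.32 and -0.48, and LTA, lymphotoxin alpha, between -0.80 and 0.75. TNFSF11, the osteoclast factor RANKL, TNFSF14, the HVEM ligand LIGHT, and TNFSF8, TNFSF15 and TNFSF18 were also below the limit on every array. LTB, lymphotoxin beta, exceeded it only on knockdown array 2, at 3.85. The feature that averages TNFSF12, or TWEAK, with TNFSF13, or APRIL, exceeded it only on mock array 2, at 4.08. The probe of TNFSF12 alone exceeded it on 2 arrays, at 6.46 on mock array 2 and 3.29 on knockdown array 1.

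The receptors were kept more often than the ligands, 15 of 25. Those with S/N at or below 3 on every array were CD40, TNFRSF10A (a death receptor of TRAIL), TNFRSF10D (a TRAIL decoy receptor), TNFRSF13B and TNFRSF17 (receptors of APRIL on B cells), TNFRSF4, TNFRSF7 (CD27) and TNFRSF8. TNFRSF18 was above the limit on 2 arrays, 1 of each group, and was not kept. The feature of TNFRSF10C, another TRAIL decoy receptor, was not kept because it averages a silent probe with one that was above the limit on 4 arrays. In the single-probe fit the latter gave a log2 change of -0.08 (SE 0.22). The array reads RNA from whole cultures, so fewer expressing cells and less RNA per cell cannot be told apart.

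Across the 21 kept features, replicate means were over 2-fold higher after SOX2 knockdown for 2, TNFRSF9 and TNFRSF19L, against 1.47% of all 18378 kept features, and over 2-fold lower for 0, against 0.909%. TNFRSF9 was kept only through its knockdown arrays, where it was the higher, and the count was 1 where S/N had to exceed 3 on all 4 arrays. By limma, 5 were higher at an unadjusted p below 0.05, against 8.12% of all features, and 2 were lower, against 9.07%. None passed an adjusted p of 0.05, and neither did any other feature on the array (0%). At the looser adjusted p of 0.1 the members also gave 0, against 0.903% of all features. Other settings gave up to 6 members at that level, but the share of all features under those settings is not given. Both knockdown arrays lay above both mock arrays for 9 members, against 21.6% of all features, and below them for 3, against 25.7%. The log2 change was above 0 for 16 members, against 50.3% of all features, and below 0 for 5. The median of the members was 0.16, whereas the median of all features was 0. The 16 include TNFSF5IP1, which is outside the superfamily. They also include TNFRSF9 and TNFSF13B, which were kept only through their knockdown arrays, where their means were the higher. The count and the median therefore depend in part on the filter. With 2 arrays against 2, an exact two-sided permutation test of a single feature cannot go below 0.333.

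**Figure D2:**
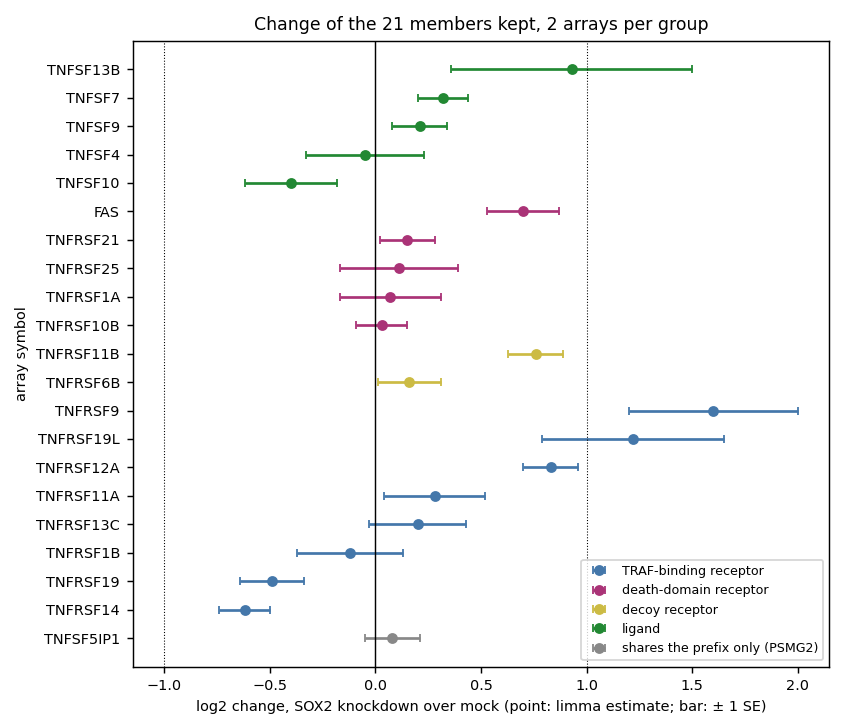
Log2 change of the 21 kept features (SOX2 knockdown over mock; points are limma estimates, bars ± 1 SE, n = 2 arrays per group), coloured by role, with dotted lines at 2-fold. TNFRSF9, at 1.60, and TNFRSF19L, at 1.22, lie beyond the upper line (the mock signals of TNFRSF9 were not above background), and TNFRSF14, at -0.62, is the lowest of the 21.

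Among the ligands, TNFSF7, which is CD70 and binds CD27, gave 0.392 and 0.416 in mock and 0.504 and 0.503 in knockdown cells. The groups did not overlap, and limma gave a log2 change of 0.32 (SE 0.12, adjusted p = 0.301). TNFSF9, the ligand of TNFRSF9, gave 1.01 and 0.902 against 1.09 and 1.12, again without overlap, with a log2 change of 0.21 (SE 0.13). TNFSF10, the apoptosis-inducing ligand TRAIL, was read at 0.0433 and 0.0495 in mock and 0.0420 and 0.0294 in knockdown cells. Both knockdown values were below both mock values, by a log2 change of -0.40 (SE 0.22, limma adjusted p = 0.458). TNFSF13B, the B cell survival factor BAFF, was 0.0305 and 0.01 in mock and 0.0376 and 0.0294 in knockdown cells. These values overlapped, and the mock value of 0.01 is the floor. S/N was only 0.29 on mock array 2, so that TNFSF13B was kept only through its knockdown arrays. TNFSF4, the ligand of TNFRSF4, overlapped as well, with a log2 change of -0.05 (SE 0.28).

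The death-domain receptors included FAS, the receptor of FASLG, which gave 1.70 and 2.0 in mock and 3.32 and 2.73 in knockdown cells. Every knockdown value exceeded every mock value, and the means, 1.85 ± 0.213 and 3.03 ± 0.415 (SD, n = 2), differed by a ratio of 1.63. Limma gave a log2 change of 0.70 (SE 0.17, unadjusted p = 0.012, adjusted p = 0.168). TNFRSF10B, a death receptor of TRAIL, was read at 54.3 and 53.5 in mock and 55.8 and 54.5 in knockdown cells. Its knockdown values were the higher ones, by a log2 change of 0.03 (SE 0.12). TNFRSF21, or death receptor 6, gave 1.99 and 1.87 against 2.24 and 2.05, without overlap, a log2 change of 0.15 (SE 0.13). TNFRSF1A, the widely expressed receptor of TNF, was 2.45 and 3.66 in mock and 2.96 and 3.32 in knockdown cells, so that the spread between mock arrays enclosed both knockdown values. TNFRSF25 is uncertain, because its feature averages 4 probes, of which 2 belong to PLEKHG5. Its own probes gave log2 changes of 0.18 (SE 0.27) and 0.03 (SE 0.40).

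Of the decoy receptors, TNFRSF11B, or osteoprotegerin, which binds RANKL and TRAIL, gave 0.260 and 0.287 in mock and 0.472 and 0.451 in knockdown cells. The groups were well apart relative to their spread, at a ratio of 1.69 and a log2 change of 0.76 (SE 0.13, limma unadjusted p = 0.00321, adjusted p = 0.118). The TNFRSF6B feature, named for the soluble decoy of FASLG, averages 3 probes that the array annotates with both TNFRSF6B and RTEL1, a neighbouring DNA helicase gene. By RefSeq accession only 1 of the 3 matched TNFRSF6B, and it matched RTEL1 too. That probe gave 0.465 and 0.553 in mock and 0.365 and 0.332 in knockdown cells. It was lower in both knockdown arrays, with a log2 change of -0.54 (SE 0.16, limma adjusted p = 0.211 in the single-probe fit), whereas the feature as a whole gave 0.16 (SE 0.15).

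The TRAF-binding receptors held both features past 2-fold. TNFRSF9, the costimulatory receptor CD137 of activated T cells, was read at 0.0385 and 0.0198 in mock and 0.0680 and 0.103 in knockdown cells. S/N was 1.05 and 0.60 in mock cells, not above background, and 4.25 and 6.18 in knockdown cells. The probe thus passed the filter only through the group where it was high, and the mock values are no more than limits. The scanner's error of each mock signal was put on the normalized scale, and mock signals below 3 errors were raised to that value. With this bound TNFRSF9 was 1.03-fold higher after knockdown, close to no difference. The bound was not taken from the S/N scores, and it does not establish an increase. The measured means, 0.0292 and 0.0855, had a ratio of 2.93, and the fitted log2 change of 1.60 (SE 0.40, limma adjusted p = 0.175) takes the mock signals at face value. TNFRSF19L, now named RELT, gave 0.0803 and 0.0453 in mock and 0.103 and 0.191 in knockdown cells. Its groups did not overlap, but the knockdown arrays were far apart, and the ratio of 2.34 came with a log2 change of 1.22 (SE 0.43, limma adjusted p = 0.268). Leaving out knockdown array 2 or mock array 2 lowered the log2 change of TNFRSF19L to 0.77 and 0.80, below 2-fold. Without knockdown array 1 or mock array 1 it rose to 1.67 and 1.63. After normexp background correction of the raw readings, neither TNFRSF9, at 0.08, nor TNFRSF19L, at 0.32, was past 2-fold.

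TNFRSF12A, the TWEAK receptor Fn14, gave 4.79 and 5.39 in mock and 9.02 and 9.06 in knockdown cells. The knockdown values were nearly equal and far above both mock values, at a ratio of 1.77. Its log2 change of 0.83 (SE 0.13) had an unadjusted p of 0.00233 by limma, the lowest among the members, and an adjusted p of 0.111. TNFRSF14, or HVEM, a receptor of LIGHT, was lower, at 0.575 and 0.586 in mock and 0.384 and 0.373 in knockdown cells. Replicates lay close together in both groups, and mock exceeded knockdown 1.54-fold, a log2 change of -0.62 (SE 0.12, limma unadjusted p = 0.0051, adjusted p = 0.131). Its 2 probes gave -0.48 (SE 0.13) and -0.71 (SE 0.12) in the single-probe fit. TNFRSF19, or TROY, a receptor of the developing nervous system, was 1.02 and 1.07 in mock and 0.821 and 0.675 in knockdown cells. Both knockdown values were the lower ones, by a log2 change of -0.49 (SE 0.15, limma adjusted p = 0.232).

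**Figure D3:**
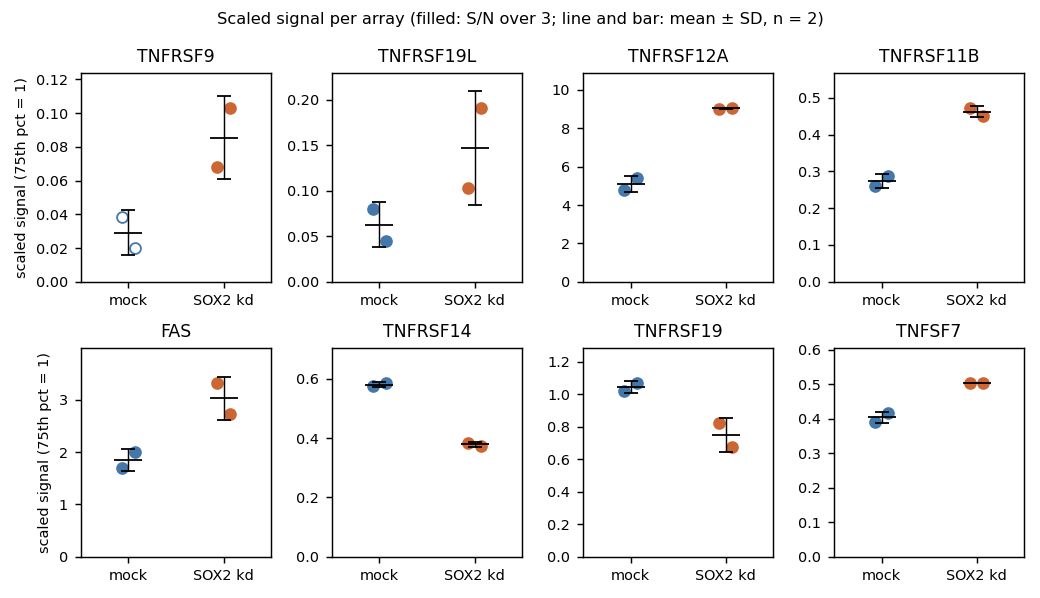
Scaled signal (array 75th percentile = 1, linear axes from 0) of 8 members on each array; filled points have S/N above 3, and lines with bars are means ± SD of 2 arrays. TNFRSF14 and TNFRSF19 show knockdown below mock, the other 6 show it above, and the mock points of TNFRSF9 are open.

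The other TRAF-binding receptors overlapped between groups. TNFRSF1B, the second TNF receptor, gave a log2 change of -0.12 (SE 0.25), TNFRSF11A, the RANKL receptor RANK, 0.28 (SE 0.24), and TNFRSF13C, the BAFF receptor, 0.20 (SE 0.23). TNFSF5IP1, outside the superfamily, gave 0.08 (SE 0.13).

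Promoter sequences are shown for 3 of the 7 members with an unadjusted p below 0.05, because NF-kappaB and SOX proteins act through DNA sites. RefSeq (GRCh38.p14) windows list the bases before each annotated start, and the most upstream window of each gene was used, 250 bases long. Windows inside the annotated span of their own gene, those of FAS and TNFRSF14, are not printed. No window was found for TNFRSF12A. TNFSF7 and TNFRSF13C, which are not among the 7, were not searched either. TNFRSF10B and TNFRSF11B were left out by their chromosome, a cut that was not made for the comparison with all genes. Capitals mark matches to the kappaB consensus. Neither CATTGT, taken from the SOX2 motif that the study quotes for mouse ES cells, nor its reverse complement occurred in these windows. The study's own consensus in LN229 cells, wwTGnwTw (w is A or T, n any base), was not searched, so its absence is not shown.
TNFRSF9 (chr1:7940840-7941089, minus strand): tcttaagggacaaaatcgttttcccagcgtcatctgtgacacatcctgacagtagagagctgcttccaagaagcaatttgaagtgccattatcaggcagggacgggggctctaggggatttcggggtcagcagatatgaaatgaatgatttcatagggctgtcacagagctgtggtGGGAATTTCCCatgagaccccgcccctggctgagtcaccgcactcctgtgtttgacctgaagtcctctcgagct
TNFRSF19L (chr11:73376149-73376398, plus strand): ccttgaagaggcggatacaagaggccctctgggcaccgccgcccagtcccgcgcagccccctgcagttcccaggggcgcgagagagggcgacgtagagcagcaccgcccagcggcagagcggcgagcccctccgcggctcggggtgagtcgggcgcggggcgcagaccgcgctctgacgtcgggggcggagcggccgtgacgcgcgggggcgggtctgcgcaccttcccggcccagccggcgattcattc
TNFRSF19 (chr13:23570162-23570411, plus strand): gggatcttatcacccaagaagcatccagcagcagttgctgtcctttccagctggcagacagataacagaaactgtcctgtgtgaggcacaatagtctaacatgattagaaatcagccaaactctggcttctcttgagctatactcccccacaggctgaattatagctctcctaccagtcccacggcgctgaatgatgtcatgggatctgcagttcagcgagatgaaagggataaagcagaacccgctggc
On either strand, the kappaB consensus matched in the windows of TNFRSF9 and TNFRSF14, where the matches overlap each other, and in no other of the 15 kept members searched. That is 13.3% of these members, against 9.58% of the 27305 genes in the table. When every listed window was searched, FAS and TNFRSF19 also held a match, which made 4 of 15 (26.7%) against 11.8% of all genes. CATTGT matched in 0 of the 15, against 9.46% of all genes. A match describes letters in the window and not a bound site.

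Superfamily genes whose symbols lack the prefix were read from a separate list of 6, of which 3 were kept. Of these 3, 1 was over 2-fold higher (1.47% of all features were) and 0 over 2-fold lower (0.909%). NGFR, the low-affinity neurotrophin receptor with a death domain, gave 0.767 and 1.02 in mock and 2.76 and 2.18 in knockdown cells. Its groups were wide apart, at a ratio of 2.76 and a log2 change of 1.47 (SE 0.22, limma adjusted p = 0.103). LTBR, the lymphotoxin beta receptor, gave -0.12 (SE 0.14) and EDA, the ligand ectodysplasin, 0.26 (SE 0.47), both with overlapping groups.

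Of 39 genes for receptor-proximal signalling, 37 were kept, 4 of them over 2-fold higher (1.47% of all features were) and 0 over 2-fold lower (0.909%). At an unadjusted p below 0.05, 4 were higher and 2 lower, beside 8.12% and 9.07% of all features, and 2 passed an adjusted p of 0.1 by limma, beside 0.903%. BIRC3, a TRAF-binding ubiquitin ligase that restrains caspase activation, gave 0.0803 and 0.0877 in mock and 0.287 and 0.279 in knockdown cells, a log2 change of 1.75 (SE 0.13, limma adjusted p = 0.07). TNFAIP3, the NF-kappaB inhibitor A20, gave 0.217 and 0.215 against 0.625 and 0.600, a log2 change of 1.5 (SE 0.12, limma adjusted p = 0.0701). In both genes the replicates lay close together while the groups were far apart. MAP3K14, the kinase NIK, had a log2 change of 1.04 (SE 0.14). OTUD7B, a deubiquitinase of TRAF3, had one of 1.16 (SE 0.33), but its S/N was 0.61 and 3.36 in mock and 5.91 and 3.15 in knockdown cells, so that it was kept only through the group where it was high. The lowest log2 changes in the list were those of CRADD, a death-domain adaptor, at -0.44 (SE 0.12), CYLD, a deubiquitinase that limits NF-kappaB signalling, at -0.41 (SE 0.13), and MAP3K5, the stress kinase ASK1, at -0.27 (SE 0.12). The median of the 37 was 0.05, beside 0 for all features.

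Of 11 genes for ligand processing and TNF-induced proteins, 9 were kept. Of these, 1 was over 2-fold higher (1.47% of all features were) and 0 over 2-fold lower (0.909%). By limma, 1 was higher at an unadjusted p below 0.05, beside 8.12% of all features, and 1 passed an adjusted p of 0.1, beside 0.903%. TNFAIP2, a gene induced by TNF, was over 2-fold higher, at 0.109 and 0.115 in mock and 0.258 and 0.253 in knockdown cells (log2 change 1.19, SE 0.12, limma adjusted p = 0.0833). In all, 4 of the 9 were lower at an unadjusted p below 0.05, beside 9.07% of all features: TNFAIP6, a hyaluronan-binding protein induced by TNF, at -0.87 (SE 0.13), TNFAIP8 at -0.59 (SE 0.14), FURIN, a proprotein convertase, at -0.58 (SE 0.12) and ADAM10, a membrane sheddase, at -0.56 (SE 0.12). ADAM17, the sheddase that releases TNF, gave -0.29 (SE 0.15). The median of the 9 was -0.29.

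**Figure D4:**
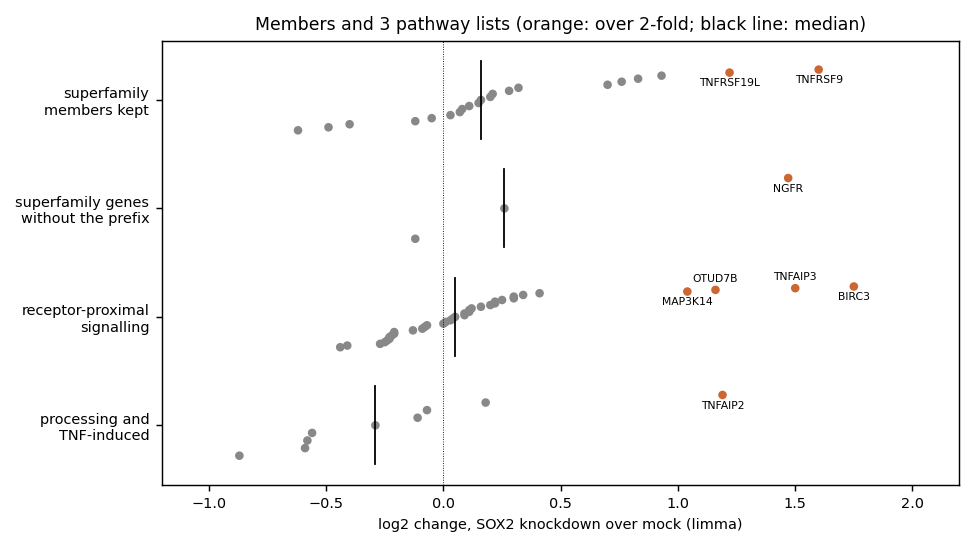
Log2 change (limma, SOX2 knockdown over mock) of the kept members and of the kept genes of 3 lists, ordered vertically by size within each row; orange points are over 2-fold and black lines are medians. The medians are 0.16, 0.26, 0.05 and -0.29 from the top row to the bottom row.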

How the data were processed

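RNA from 4 cultures was measured on 1 array each. Per the file headers, the deposited scanner files hold signal intensity normalized by the scanner software, and a S/N score per probe. Its version and the array's genome build are not given in the sources used here. The deposited series table holds ratios that the authors made by scaling each chip to its 75th percentile and dividing by each gene's median.

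From the scanner signals, probes flagged at 5000 or above on any array were removed (210 of 33096, 0 of them members). Probes were then averaged by Celera gene ID. Signals were divided by the array's 75th percentile, floored at 0.01 and taken to log2. Features with S/N above 3 on both arrays of a group (18378 of 27739) were fitted with limma 3.58.1 in R 4.3.3, with two-sided Benjamini-Hochberg adjusted p over all of them. The fit was tested on simulated data. The 2-fold cutoff used linear replicate means, with no test, as in the study's methods. Alternatives changed scaling, background, floor, filter, averaging, variance model, pairing and arrays. The text names every kept member, and of each pathway list those past 2-fold or changed most. ADAM10, ADAM17, FABP7, OLIG2 and VIM were named after their values were seen. For promoters, the most upstream RefSeq window of each gene was searched, apart from the members left out above. All 47 probes were matched to RefSeq names by accession. Members and lists were chosen with earlier results of these data known. The number of arrays limits the precision. One marker of the blood and immune cell list is not reported here.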

Additional observations from a re-analysis of the deposited data

How the results depend on the processing

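The share of all features called under each alternative is not given, so the counts below describe the members only. The 2 members past 2-fold, both higher, became 7 at a 1.5-fold cutoff in either direction. Without the S/N filter there were 4, with LTB, higher at a ratio of 3.1, and CD40, lower at 0.483, in addition. There was 1 where S/N had to exceed 3 on every array, 1 at the higher floor (0.05), and 0 after normexp background correction. Under that correction the log2 change of TNFRSF9 was 0.08 and that of TNFRSF19L 0.32. Leaving out 1 array at a time gave 1 to 3 members: 1 without knockdown array 2 or mock array 2, and 3 without knockdown array 1 or mock array 1. The count past an adjusted p of 0.05, 0 as reported, was 3 when scaled to the array median, 3 with no further scaling, 2 from the series value table and 1 with a variance trend (TNFRSF12A, limma adjusted p = 0.0425). In the first 3 of these limma gave all features the same error, and TNFRSF9 (1.57) and TNFRSF19L (1.19) were called in each. The count was 0 under the other alternatives run, leave-one-out fits included (0 to 0).

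Same-numbered arrays did not deviate together: their deviations from the group means correlated at -0.499 across all features. Opposite-numbered arrays thus tended to deviate in the same direction, which the fit reported above does not model. The replicate block gave 0 members past an adjusted p of 0.05, as did a crossed replicate block, which paired opposite-numbered arrays. The crossed block was chosen after seeing the data, like the bound of TNFRSF9. At an adjusted p of 0.1, 0 members passed as reported. Limma gave 6 under the crossed block (adjusted p 0.0687 to 0.0818), 4 with a variance trend and 4 at the array median. It gave 3 with no further scaling, 3 from the series value table and 2 where S/N had to exceed 3 on every array. The share of all features called under these settings is not given, so the counts do not show whether the members stood out.

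Of 313 recomputed log2 changes 291 kept their direction and side of the threshold, 2 (TNFSF10 and TNFSF13B at the higher floor) were 0 and had no direction, and 9 passed the threshold in addition. The 11 reversals were those of TNFRSF11A (-0.55) and TNFRSF25 (-0.0013) after normexp, and, leaving out an array, TNFSF4 (0.11 and 0.29, within a range of -0.39 to 0.29), TNFRSF1B (0.11 in both cases, range -0.34 to 0.11), TNFRSF1A (-0.22 and -0.02, range -0.22 to 0.35), TNFRSF25 (-0.19 and -0.14, range -0.19 to 0.4) and TNFRSF13C (-0.03, range -0.03 to 0.43). The cause was not tested for any of these. Members near background, such as TNFRSF9 and TNFSF13B, are the least certain, and 2 arrays per group limit every value.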
